A study of Mus musculus with 9 samples.

Results

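The Polycomb repressive complex genes followed here are 10 genes of mouse embryonic stem cells: Ezh2, Eed, Suz12, Jarid2 and Mtf2 of Polycomb repressive complex 2 (PRC2), and Ring1, Rnf2, Pcgf6, Cbx7 and Kdm2b of Polycomb repressive complex 1 (PRC1). They were chosen by name, and each was read from the array probe set that the platform annotation gives to that symbol alone, taking the brightest where there were several. By that rule 9 of the 10 were measured, each by 1 probe set, among 22180 genes in all. Kdm2b is annotated there only together with a second gene, so that no value is given for it. Expression was measured with Affymetrix arrays in NG4 cells, a 129/Sv line with a fluorescent reporter of Nanog, on gelatin and with the cytokine LIF. A lentivirus of the pLKO.1 type gave the cells a control hairpin (shControl) or one that targets either the splicing factor gene Phf5a (shPhf5a) or Paf1 (shPaf1), whose protein accompanies elongating RNA polymerase II. All 3 groups were selected with puromycin at 2 μg/mL for 72 h, and each holds 3 arrays. Each knockdown rests on 1 hairpin in 1 cell line, and nothing in the labels says whether replicates came from separate cultures, so that p-values measure only how far these samples spread, possibly for technical reasons.

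Polycomb complexes keep developmental genes silent. PRC2 methylates histone H3 through Ezh2 or its relative Ezh1. Ezh2 is active only together with Eed and Suz12, while accessory subunits such as Jarid2 and Mtf2 help to bring PRC2 to its sites. PRC1 ubiquitylates histone H2A through Ring1 or Rnf2. Canonical PRC1 carries a Polycomb-type Cbx protein, such as Cbx7, that binds the methyl mark of PRC2. Variant PRC1 forms lack that type and carry other subunits, among them Pcgf6 or the DNA-binding Kdm2b. In embryonic stem cells both complexes sit mainly at CpG-rich promoters of lineage genes.

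The promoters of the 4 members that changed most are shown, because the first listed starts of the members are themselves CpG-rich. They come from RefSeq on mouse build GRCm38.p6 and are written 5′ to 3′ on the strand of the gene, leaving out bases inside the gene. All 9 measured members had an entry, and for Jarid2 and Mtf2, with 2 listed starts each, the first was used. Capitals mark matches, on either strand, to the GC box (GGGCGG) and to a part of the cyclic AMP response element (TGACGTC).
Eed, chr7:89980977-89981226, minus strand: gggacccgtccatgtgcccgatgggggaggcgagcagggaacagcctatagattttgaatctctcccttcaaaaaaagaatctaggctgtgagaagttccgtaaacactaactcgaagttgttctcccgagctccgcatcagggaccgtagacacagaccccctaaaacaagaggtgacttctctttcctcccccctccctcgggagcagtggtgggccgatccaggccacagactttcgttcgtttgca
Mtf2, chr5:108065424-108065659, plus strand: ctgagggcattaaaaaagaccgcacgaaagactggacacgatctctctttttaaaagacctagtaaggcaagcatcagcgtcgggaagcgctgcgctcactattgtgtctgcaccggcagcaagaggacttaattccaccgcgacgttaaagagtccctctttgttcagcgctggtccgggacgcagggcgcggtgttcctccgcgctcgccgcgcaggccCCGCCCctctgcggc
Ring1, chr17:34024681-34024930, minus strand: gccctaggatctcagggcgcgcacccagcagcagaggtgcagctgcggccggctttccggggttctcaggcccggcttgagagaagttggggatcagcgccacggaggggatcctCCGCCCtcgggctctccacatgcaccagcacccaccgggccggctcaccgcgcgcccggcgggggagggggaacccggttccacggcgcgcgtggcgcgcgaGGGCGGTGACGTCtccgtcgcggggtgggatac
Pcgf6, chr19:47050940-47051156, minus strand: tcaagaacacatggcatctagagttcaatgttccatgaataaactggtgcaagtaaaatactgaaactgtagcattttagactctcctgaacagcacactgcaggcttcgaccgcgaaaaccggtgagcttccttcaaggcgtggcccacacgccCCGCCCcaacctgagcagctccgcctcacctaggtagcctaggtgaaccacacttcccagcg

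Over the 250 bases before the first listed start, CpG dinucleotides were at 0.652 (Eed) to 1.10 (Suz12) of the number that base composition alone gives in the 9 measured members, and the median over 32817 RefSeq promoters of that length was 0.373. Unlike the printed sequences, these windows keep bases inside the gene, which for Cbx7 are all and for Ezh2 most of them. The second listed starts, not used, were at 0.899 (Jarid2) and 0.149 (Mtf2). A GC box was found in 7 of the 9, with no match in Eed or Ezh2, and in 32.7% of all those promoters. The sequence TGACGTC was found only in Ring1 among the 9, where it follows a GC box directly, and in 2.78% of all promoters. A CCAAT box was found in 4 of the 9 (Ezh2, Suz12, Jarid2 and Cbx7) and in 33.8% of all, and none of the 4 promoters printed holds one. These matches describe letters and not binding. The background holds all RefSeq promoters and not those of expressed genes alone, so that CpG richness is not shown to be particular to the members.

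Both hairpins lowered their target gene: Phf5a fell by 1.24 log2 units in shPhf5a and Paf1 fell by 1.39 in shPaf1. Each target was also called lower in the other knockdown. Phf5a differed by -0.57 in shPaf1 (adjusted p = 0.0183, lost in 3 of 18 alternatives) and Paf1 by -0.25 in shPhf5a (adjusted p = 0.0267, lost in 5 of 18). Array medians lay between 6.22 and 6.31 log2 units. Of 8 markers of embryonic stem cells 7 lay above the median of all genes (6.70) in every group, and 6 were called lower in each knockdown, with mean log2 values of 10.33 to 10.38 over the shControl arrays, 9.93 to 10.14 in shPhf5a and 9.83 to 9.86 in shPaf1. Of markers of other cell types, 2 or 3 of 8 fibroblast genes, 1 of 6 macrophage and blood genes, 3 or 4 of 5 trophectoderm genes and 3 or 4 of 5 primitive endoderm genes lay above the median, depending on the group. Among the arrays, shPhf5a replicate 2 deviated most from its group (root mean square 0.13 log2 units, against 0.07 to 0.12 for the others). It also kept the most Phf5a, at 55.9% of the mean in shControl, against 34.4% and 39.6% in shPhf5a replicates 1 and 3. The number of arrays limits the precision of every value, and in bulk RNA fewer cells of a type and less RNA per cell cannot be told apart.

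Some members changed and others did not pass the test. With Phf5a lowered, 4 of the 9 measured members passed the test (Benjamini-Hochberg adjusted p under 0.05 in limma): Ring1, Pcgf6 and Eed fell and Suz12 rose. With Paf1 lowered, also 4 passed, and all were lower: Mtf2, Pcgf6, Eed and Ring1. No member changed by as much as 2-fold, and the largest difference was the 1.60-fold fall of Mtf2 in shPaf1. Of all genes tested 37.4% were called in shPhf5a and 35.8% in shPaf1, and of the genes above the median level, where all 9 members lie, 62.1% and 59.9%. Lower calls made up 20.7% and 17.8% of all genes, and arrays of the groups did not overlap for 45.8% and 48.3% of them, beside 6 and 5 of the 9 members. The members' share of 44.4% in each comparison is thus near the first background and below the second. The median difference over the members was -0.03 log2 units in shPhf5a and -0.09 in shPaf1, beside -0.03 and -0.01 over all genes.

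The count in shPhf5a depended on single arrays. It was 2 (Ring1 and Pcgf6) without shControl replicate 1, without shControl replicate 2 or without shPhf5a replicate 1, and 5 without shPhf5a replicate 2. Leaving out that last array also raised the share of all genes called in shPhf5a from 37.4% to 39.8%. The members' split of 1 higher and 3 lower became 2 and 2 after quantile normalization, and 0 and 3 after centring of each array. In shPaf1 the split of 0 higher and 4 lower became 1 and 4 after quantile normalization.

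**Figure D1:**
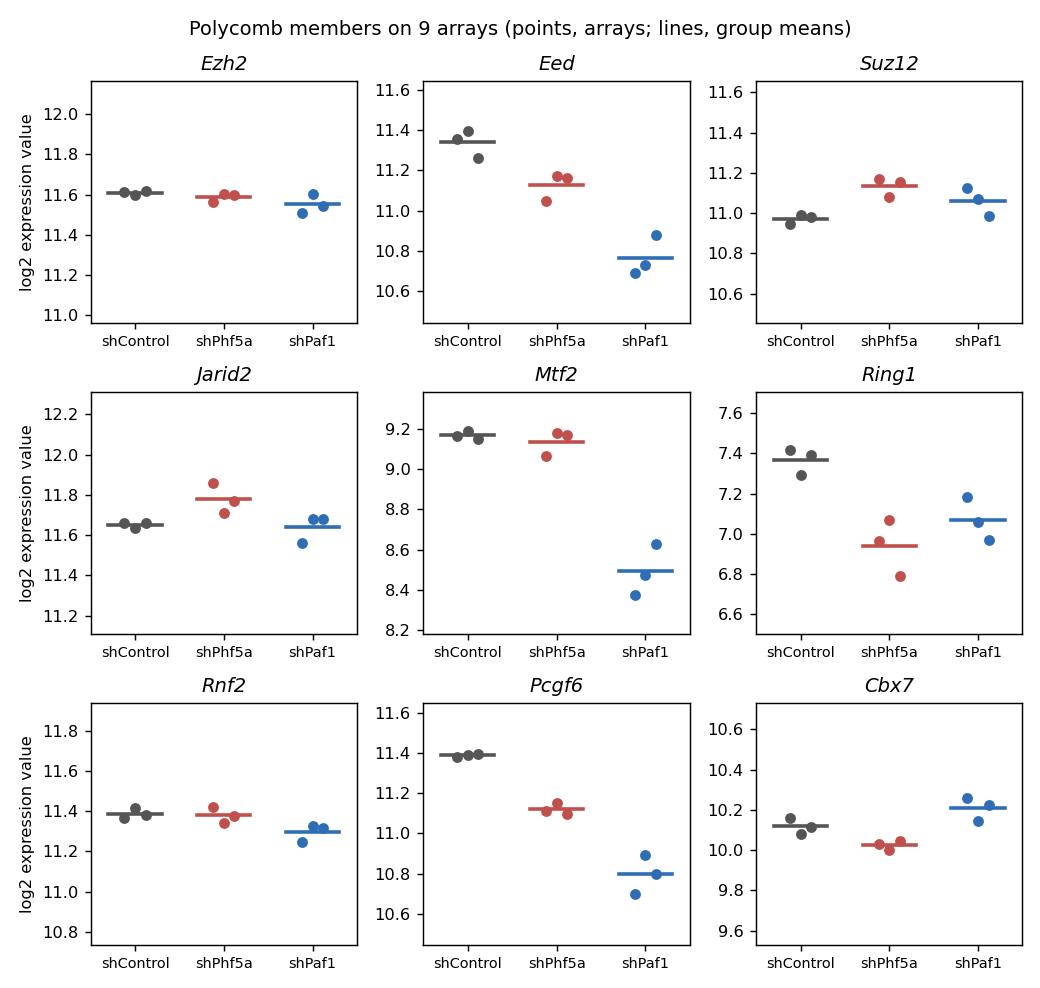
Log2 expression value (vertical axis, the same span of 1.2 units in every panel) of the 9 measured members on each array of shControl, shPhf5a and shPaf1; points are arrays and lines are group means. Pcgf6 and Eed step down from shControl to shPhf5a to shPaf1, Mtf2 is low in shPaf1 alone, and Ezh2 and Rnf2 stay nearly level.

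The catalytic core of PRC2 split into members that moved and members that did not. Ezh2, the methyltransferase among the members, read 11.61, 11.60 and 11.62 log2 units in shControl replicates 1, 2 and 3, then 11.56, 11.60 and 11.60 in shPhf5a and 11.51, 11.60 and 11.54 in shPaf1. The 3 groups overlapped. Its differences were -0.02 in shPhf5a (95% confidence interval -0.12 to 0.08, adjusted p = 0.769) and -0.06 in shPaf1 (-0.16 to 0.04, adjusted p = 0.372), so that a fall as large as that of Eed in either knockdown lies outside its interval.

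Eed, which binds the methyl mark and stimulates Ezh2, read 11.35, 11.40 and 11.26 in shControl, 11.05, 11.17 and 11.16 in shPhf5a, and 10.69, 10.73 and 10.88 in shPaf1. No 2 groups overlapped, with shControl highest and shPaf1 lowest. Eed fell by 0.57 in shPaf1 (SE 0.07, 1.49-fold, adjusted p = 9.48e-05), leaving 63.8% to 72.7% of the mean in shControl, and this call held in all 18 alternatives. Its fall in shPhf5a was -0.21 (SE 0.07, adjusted p = 0.0287) and was lost after quantile normalization (adjusted p = 0.127) and without shControl replicate 1, shControl replicate 2 or shPhf5a replicate 1 (0.0816, 0.101 and 0.0901). The difference between the knockdowns was 0.36 (SE 0.07, adjusted p = 0.00231).

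Suz12, the scaffold subunit, read 10.94, 10.99 and 10.98 in shControl, 11.17, 11.08 and 11.15 in shPhf5a, and 11.12, 11.07 and 10.98 in shPaf1. The shPhf5a arrays lay above all shControl arrays, and shPaf1 overlapped with both. Suz12 rose by 0.16 in shPhf5a (SE 0.05, adjusted p = 0.0306), but the call was lost in 7 of 18 alternatives. They were centring (adjusted p = 0.0936), the replicate block (0.0552), and 5 fits that each dropped an array: any of shControl, or shPhf5a replicate 1 or 3 (0.0594 to 0.0934). In shPaf1 its difference was 0.09 (95% confidence interval -0.03 to 0.20, adjusted p = 0.237), and quantile normalization alone brought it past the threshold (0.15, with 0.0489).

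The accessory subunits of PRC2 behaved unlike each other. Mtf2, a Tudor and PHD-finger protein that binds CpG-rich DNA, read 9.17, 9.19 and 9.15 in shControl, 9.06, 9.18 and 9.17 in shPhf5a, and 8.38, 8.47 and 8.63 in shPaf1. The shPaf1 arrays lay apart from the 6 others, which overlapped with each other. Mtf2 fell by 0.68 in shPaf1 (SE 0.07, 1.60-fold, adjusted p = 3.73e-05), leaving 57.7% to 68.7% of the mean in shControl, while in shPhf5a its difference was -0.03 (95% confidence interval -0.18 to 0.12, adjusted p = 0.76). The knockdowns differed by 0.64 (SE 0.07, adjusted p = 9.16e-05), the largest such difference among the 9 members, and both the fall and this difference held in all 18 alternatives.

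Jarid2, a DNA-binding cofactor that recruits PRC2, read 11.66, 11.64 and 11.66 in shControl, 11.86, 11.71 and 11.77 in shPhf5a, and 11.56, 11.68 and 11.68 in shPaf1. The shPhf5a arrays lay above those of both other groups. Its difference in shPhf5a was 0.13 (SE 0.06), short of the threshold at an adjusted p of 0.101. Quantile normalization brought it past (0.19, adjusted p = 0.0358), as did dropping shPhf5a replicate 2 (0.16, with 0.0456). In shPaf1 the difference was -0.01 (95% confidence interval -0.14 to 0.11, adjusted p = 0.905).

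Of the alternative ubiquitin ligases of PRC1, Ring1 fell and its close relative Rnf2 did not pass. Ring1 read 7.42, 7.29 and 7.39 in shControl, 6.97, 7.07 and 6.79 in shPhf5a, and 7.18, 7.06 and 6.97 in shPaf1. Both knockdowns lay below all shControl arrays and overlapped with each other. In shPhf5a the fall of Ring1 was 1.34-fold, or -0.43 log2 units (SE 0.08, adjusted p = 0.00216), which held in all 18 alternatives. The fall in shPaf1 was smaller at -0.30 (SE 0.08, adjusted p = 0.016). It missed the threshold when shControl replicate 1 (0.0608), shControl replicate 3 (0.0526), shPaf1 replicate 2 (0.0512) or shPaf1 replicate 3 (0.0667) was dropped. Its probe set was the dimmest of the members', close to the median of all genes.

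Rnf2, which encodes Ring1B, the main ligase of embryonic stem cells, read 11.37, 11.42 and 11.38 in shControl, 11.42, 11.34 and 11.38 in shPhf5a, and 11.25, 11.33 and 11.31 in shPaf1. The shPaf1 arrays lay below those of the other groups by a margin smaller than the spread within shPhf5a. Its differences of -0.01 in shPhf5a (95% confidence interval -0.11 to 0.10, adjusted p = 0.935) and -0.09 in shPaf1 (-0.19 to 0.01, adjusted p = 0.17) did not pass in any of the 18 alternatives.

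Pcgf6 was lower in both knockdowns. This subunit defines a variant PRC1 that represses germline genes in embryonic stem cells. It read 11.38, 11.39 and 11.39 in shControl, 11.11, 11.15 and 11.10 in shPhf5a, and 10.70, 10.89 and 10.80 in shPaf1. As for Eed, no 2 groups overlapped and the order was shControl, shPhf5a, shPaf1. In shPhf5a the fall of Pcgf6 was 1.21-fold, or -0.27 log2 units (SE 0.05, adjusted p = 0.00313), leaving 81.8% to 84.8% of the mean in shControl. It fell by 0.59 in shPaf1 (SE 0.05, 1.51-fold, adjusted p = 2.6e-05), leaving 62.1% to 71.0%. The knockdowns differed by 0.32 (SE 0.05, adjusted p = 0.00159), and these 3 calls held in all 18 alternatives.

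Cbx7, the chromodomain subunit of canonical PRC1 in embryonic stem cells, read 10.16, 10.08 and 10.12 in shControl, 10.03, 10.002 and 10.05 in shPhf5a, and 10.26, 10.14 and 10.23 in shPaf1. The shPhf5a arrays were the lowest and did not overlap with either other group, while shPaf1 overlapped with shControl. Against shControl neither its difference of -0.09 in shPhf5a (adjusted p = 0.17) nor that of 0.09 in shPaf1 (0.196) passed, nor did they in any of the 18 alternatives. The difference between the knockdowns was -0.18 and passed (SE 0.05, adjusted p = 0.017), but not without shPaf1 replicate 1 (adjusted p = 0.0637) or shPaf1 replicate 3 (0.0558).

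**Figure D2:**
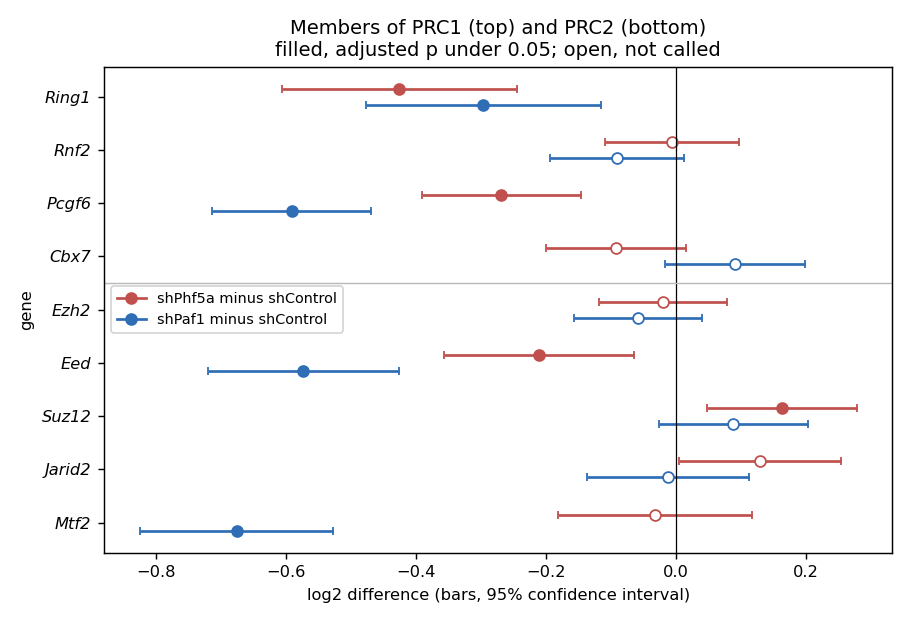
Log2 difference from shControl (horizontal axis) of the 4 measured PRC1 members (top) and the 5 PRC2 members (bottom) in shPhf5a and shPaf1, with 95% confidence intervals; filled points passed the test and open points did not. Mtf2, Pcgf6 and Eed reach -0.68, -0.59 and -0.57 in shPaf1, and the intervals of Ezh2 and Rnf2 include 0 in both knockdowns.

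Set directly against each other, the knockdowns differed in 4 of the 9 members, where 29.0% of all genes and 48.1% of those above the median level were called. Higher calls in shPhf5a made up 12.7% and lower calls 16.3% of all genes. Arrays did not overlap for 6 of the 9, and for 37.7% of all genes. Mtf2, Eed and Pcgf6 were higher in shPhf5a than in shPaf1 and Cbx7 was lower. The count was 5 without shPhf5a replicate 2, where Jarid2 was also higher (0.18, adjusted p = 0.0399) and 32.8% of all genes were called. Against the shControl arrays, which both comparisons share, Eed, Ring1 and Pcgf6 were lower in both knockdowns (3 of 9), as were 12.0% of all genes, and no member was called in opposite directions, as 2.07% of all genes were. Calls differed within PRC2, where Eed fell in both knockdowns while Ezh2 passed in neither. Of the alternative ligases of PRC1, Ring1 fell in both while Rnf2 passed in neither.

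The genes most like 2 members over the 9 arrays were looked up among 10570 named genes above the median level. For Ring1, the member with the largest change in shPhf5a, they were the keratin gene Krt42 (Pearson's r = 0.977), the protease gene Ctrl (0.976) and the protease inhibitor gene Serpinb6a (0.976). Their differences were -0.59 and -0.43 for Krt42, -0.55 and -0.51 for Ctrl, and -0.37 and -0.30 for Serpinb6a in shPhf5a and shPaf1. For Mtf2, the member with the largest change in shPaf1, they were the small nucleolar RNA Snord65 (r = 0.996), BC048403 (0.991) and the DNA polymerase gene Poli (0.989). These differed by -1.20, -0.71 and -0.88 in shPaf1 and by -0.06, -0.07 and -0.09 in shPhf5a. These correlations are a description: the 9 arrays fall into the 3 groups of the study and share their group means.

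Other subunits of the complexes changed in both directions. Of 38 further PRC1 and PRC2 genes 35 were measured, of which 13 were higher and 9 lower in shPhf5a and 15 higher and 7 lower in shPaf1. The 15 include Pcgf3 by its brighter probe set, although its 2 probe sets moved apart in shPaf1. Their share called was 62.9% in each, beside 37.4% and 35.8% of all genes and 62.1% and 59.9% of genes above the median level, where all but 3 of the 35 lie. The median differences were 0.04 and 0.13 log2 units, against -0.03 and -0.01 over all genes. Without shPhf5a replicate 2 the counts in shPhf5a were 14 higher and 12 lower, where 39.8% of all genes were called. The knockdowns differed in 20 of the 35 (57.1%), where 29.0% of all genes and 48.1% of those above the median level were called, and in 15 to 20 when 1 array was dropped.

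Among other PRC2 genes, 8 of 9 were called in shPhf5a (5 higher, 3 lower) and 5 of 9 in shPaf1 (3 higher, 2 lower). These 9 all lie above the median level, where 62.1% and 59.9% of genes were called, against 37.4% and 35.8% of all genes. Aebp2, a zinc-finger partner of Jarid2, read 9.28, 9.26 and 9.28 in shControl, 9.81, 9.63 and 9.81 in shPhf5a, and 9.11, 9.12 and 9.11 in shPaf1. It rose by 0.48 in shPhf5a (SE 0.06, adjusted p = 0.000134), while its fall in shPaf1 was -0.16 (SE 0.06, adjusted p = 0.0482), which held in only 7 of 18 alternatives (adjusted p up to 0.132). The difference of 0.64 between the knockdowns held in all 18 (SE 0.06, adjusted p = 3.5e-05 at the reported setting). Ezh1, the other methyltransferase, was named after its values were seen and was not refitted under the alternatives. It rose by 0.34 in shPhf5a (SE 0.05, adjusted p = 0.000318) and by 0.39 in shPaf1 (SE 0.05, adjusted p = 0.000112), unlike Ezh2.

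The other PCGF paralogs, which set the type of a PRC1, moved in different directions. Pcgf2 (named, like Bmi1, after its values were seen) fell by 0.38 in shPhf5a (adjusted p = 0.00119), and its difference in shPaf1 was 0.14 (adjusted p = 0.144). Bmi1 passed in neither (0.04 and 0.07). Pcgf5 read 7.38, 7.59 and 7.37 in shControl, against 8.53, 8.31 and 8.63 in the shPhf5a arrays, with no overlap, and rose by 1.04 (SE 0.09, 2.06-fold, adjusted p = 2.22e-05). In shPaf1 it read 7.97, 8.03 and 7.97 and rose by 0.54 (SE 0.09, adjusted p = 0.000806). Pcgf1, the partner of Kdm2b, read 8.77, 8.71 and 8.67 in shControl, 8.19, 8.40 and 8.23 in shPhf5a, and 8.03, 7.94 and 7.96 in shPaf1. Its falls were -0.44 (SE 0.06, adjusted p = 0.000382) and -0.74 (SE 0.06, adjusted p = 1.53e-05), so that it was lower in both knockdowns like Pcgf6.

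Pcgf3 rose by 0.74 in shPhf5a (SE 0.08, adjusted p = 6.53e-05). In shPaf1 its 2 probe sets moved apart: the brighter one differed by 0.25 and the dimmer one by -0.91, so that their mean was lower (-0.33, adjusted p = 0.00443) where the brighter one was called higher (adjusted p = 0.0265). No direction is given for Pcgf3 in shPaf1.

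Among canonical PRC1 genes, the Polyhomeotic homologs, which let complexes cluster, were called in both knockdowns. Phc3 rose by 0.71 in shPhf5a (SE 0.09, adjusted p = 0.000229) and by 0.87 in shPaf1 (SE 0.09, adjusted p = 5.5e-05). Phc2 rose by 0.67 in shPaf1 (SE 0.06, adjusted p = 1.92e-05). In shPhf5a it rose by 0.21, which was lost in 5 of 18 alternatives. Phc1, the homolog prominent in embryonic stem cells, fell by 0.23 in shPhf5a (adjusted p = 0.0134) and rose by 0.18 in shPaf1 (adjusted p = 0.0437). The fall was lost after quantile normalization (adjusted p = 0.0807) and without shPhf5a replicate 3 (0.0532). The rise held in only 9 of 18 alternatives (adjusted p up to 0.155). The knockdowns differed in Phc1 by -0.42 (SE 0.06, adjusted p = 0.000753), which held in all 18.

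Variant PRC1 genes included the largest changes, upward and downward. Fbrs, a subunit of PRC1 forms with Pcgf3 or Pcgf5, read 8.47, 8.50 and 8.39 in shControl, 9.19, 8.97 and 8.99 in shPhf5a, and 9.41, 9.47 and 9.50 in shPaf1, and rose by 0.59 (SE 0.07, adjusted p = 0.000104) and by 1.01 (SE 0.07, 2.01-fold, adjusted p = 4.11e-06). Yaf2, which with its relative Rybp stimulates variant PRC1, rose by 0.83 in shPaf1 (SE 0.13, adjusted p = 0.000551) and by 0.41 in shPhf5a (adjusted p = 0.0262), where the arrays overlapped with shControl and 4 of 18 alternatives lost the call. Rybp, named after its values were seen, did not pass in either (-0.08 and -0.04), but did in shPhf5a without shPhf5a replicate 2 (-0.15, adjusted p = 0.0305).

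Cbx3 and Tfdp1, which are found with Pcgf6 in its variant complex and also work outside it, fell in both knockdowns. Cbx3 fell by 0.61 (SE 0.09, adjusted p = 0.000438) and by 0.71 (SE 0.09, adjusted p = 0.000163) in shPhf5a and shPaf1, and each of its 4 probe sets was lower in both. Tfdp1, the dimer partner of E2F factors, fell by 0.81 in shPhf5a (SE 0.11, adjusted p = 0.000291) and by 0.41 in shPaf1 (SE 0.11, adjusted p = 0.0147), the latter lost in 2 of 18 alternatives. Other listed partners of Pcgf6, named after their values were seen, did not share these falls throughout. L3mbtl2 and Max rose in shPaf1 by 0.27 (adjusted p = 0.00382) and 0.20 (adjusted p = 0.0212, lost in 2 of 18 alternatives), with 0.12 and -0.09 in shPhf5a, short of the threshold. In 3 of 18 alternatives L3mbtl2 passed in shPhf5a (adjusted p down to 0.012). E2f6 fell by 0.38 in shPaf1 (adjusted p = 0.0271, lost in 6 of 18) and was at -0.24 in shPhf5a (adjusted p = 0.144), where it passed without shPhf5a replicate 2 (-0.38, adjusted p = 0.00581). Mga passed in neither (0.13 and 0.11), but did in shPhf5a without shPhf5a replicate 2 (0.21, adjusted p = 0.012) and with array weights (0.20, adjusted p = 0.0287).

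**Figure D3:**
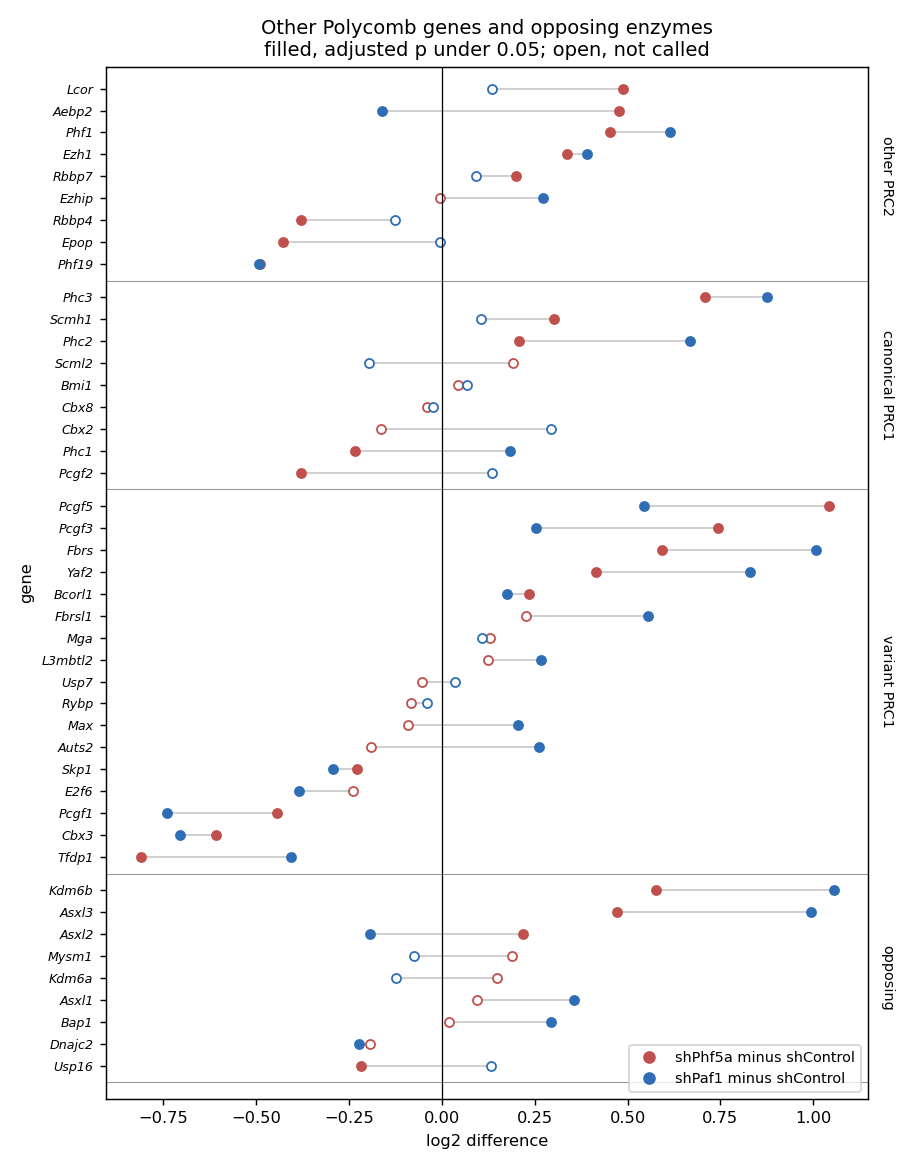
Log2 difference from shControl (horizontal axis) of 35 further PRC2 and PRC1 genes and 9 genes listed as opposing them in shPhf5a and shPaf1; lines join the values of a gene, filled points passed the test and open points did not. Aebp2 and Phc1 passed on opposite sides of 0, the points of Phf19 coincide, and Pcgf5, Fbrs and Phc3 are higher and Pcgf1, Cbx3 and Tfdp1 lower in both knockdowns. Pcgf3 is drawn from its brighter probe set, which the dimmer one did not follow in shPaf1.

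Genes that Polycomb complexes are known to hold silent in embryonic stem cells were read as well, from a textbook list of 67 developmental genes of which 61 were measured. No binding or histone mark was measured here. In shPhf5a 18 were higher and 6 lower, and in shPaf1 18 were higher and 3 lower, so that 39.3% and 34.4% were called, near the 37.4% and 35.8% of all genes. Higher calls alone made up 16.7% and 18.0% of all genes. Of the 61, 36 lie at or below the median level of all genes. Beside the 12 genes higher in both knockdowns, 2 were lower in both, where 10.6% and 12.0% of all genes were. The median difference was 0.04 in shPhf5a and 0.08 in shPaf1. Without shPhf5a replicate 2 the counts in shPhf5a were 16 and 3, where 39.8% of all genes were called.

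The rises lay mostly among endoderm, mesoderm and trophoblast genes, of which 12 of 25 were higher and 2 lower in shPhf5a and 11 higher and 1 lower in shPaf1. Msx2, a homeobox gene of BMP signalling, read 7.34, 7.35 and 7.09 in shControl, 9.40, 8.90 and 9.23 in shPhf5a. Each shPaf1 array read 7.83. It rose by 1.92 in shPhf5a (SE 0.12, adjusted p = 4.55e-06) and by 0.57 in shPaf1 (SE 0.12, adjusted p = 0.00342), and the knockdowns differed by 1.35 (SE 0.12, adjusted p = 3.16e-05). The T-box genes Tbx20 and Tbx4 rose by 1.63 (SE 0.12) and 1.51 (SE 0.10) in shPhf5a and by 0.84 (SE 0.12) and 0.92 (SE 0.10) in shPaf1. Tbx4 read exactly 8.0247 in every shPaf1 array, and such repeated values may understate the spread within a group. Gata2, Hand1 and Gata6 completed the 5 largest rises in shPhf5a (2.84, 1.87 and 1.78), and in shPaf1 they rose by 1.50, 1.78 and 1.03. Levels of 5 trophectoderm markers, of which Hand1 and Cdx2 are also among the targets, moved with these rises (4 and 3 called higher), from mean log2 values of 7.07 to 7.21 over the shControl arrays to 8.27 to 8.70 in shPhf5a and 8.65 to 8.82 in shPaf1. Those of 5 primitive endoderm markers, all of them also among the targets, went from 6.89 to 7.02 over shControl to 7.31 to 7.63 and 7.31 to 7.33, with 2 called higher in each. Their part in the result was not tested. The falls in this class were small: Cdx4 fell by 0.28 in shPhf5a, lost in 5 of 17 alternatives, and Gsc fell by 0.15 in shPaf1, lost in 8 of 18, and by 0.18 in shPhf5a, lost in 6 of 18. Without shPhf5a replicate 2 the falls in shPhf5a were -0.21 for Cdx4 (adjusted p = 0.0533) and -0.16 for Gsc (0.0514).

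Of 33 neural and ectodermal genes 5 were higher and 4 lower in shPhf5a (27.3% called), and 5 higher and 2 lower in shPaf1 (21.2%). Of these 33, 26 lie at or below the median level, as do 10 of the 25 genes of the former class, and of all genes at or below it 12.8% and 11.6% were called in shPhf5a and shPaf1. A gene's level here is its mean over all 9 arrays, knockdowns included, so that a rise or fall can itself move a gene across the median. Tbx20, for example, counts as above the median of 6.70 with a mean of 7.26, while its shControl mean was 6.44. Pou4f1, a POU factor of sensory neurons, rose by 0.89 (SE 0.08, adjusted p = 2.35e-05) and by 0.87 (SE 0.08, adjusted p = 1.86e-05). Pax6, the eye and neural tube regulator, read 8.37, 8.04 and 8.18 in shControl, 7.18, 7.68 and 7.18 in shPhf5a, and 7.38, 7.47 and 7.46 in shPaf1. It fell by 0.85 in shPhf5a (SE 0.13, adjusted p = 0.000636) and by 0.76 in shPaf1 (SE 0.13, adjusted p = 0.00125). En2, Gbx1 and Olig1 fell by 0.38, 0.24 and 0.19 in shPhf5a, where the calls of Gbx1 and Olig1 were lost in 4 and 8 of 17 alternatives, that of Olig1 also without shPhf5a replicate 2 (-0.16, adjusted p = 0.089). Neurog3 fell by 0.34 in shPaf1, a call lost in 3 of 18.

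Of the cell cycle inhibitor genes that Polycomb complexes silence, Cdkn2a, the classic target, did not pass in either knockdown (-0.01 with adjusted p = 0.888, and 0.02 with adjusted p = 0.816). Its neighbour Cdkn2b rose by 0.54 (SE 0.08, adjusted p = 0.000504) and by 0.70 (SE 0.08, adjusted p = 8.84e-05). Cdkn1c rose by 0.47 in shPaf1 (SE 0.05, adjusted p = 4.65e-05), and in shPhf5a its difference was 0.03 (adjusted p = 0.664). These 3 were named after their values were seen.

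**Figure D4:**
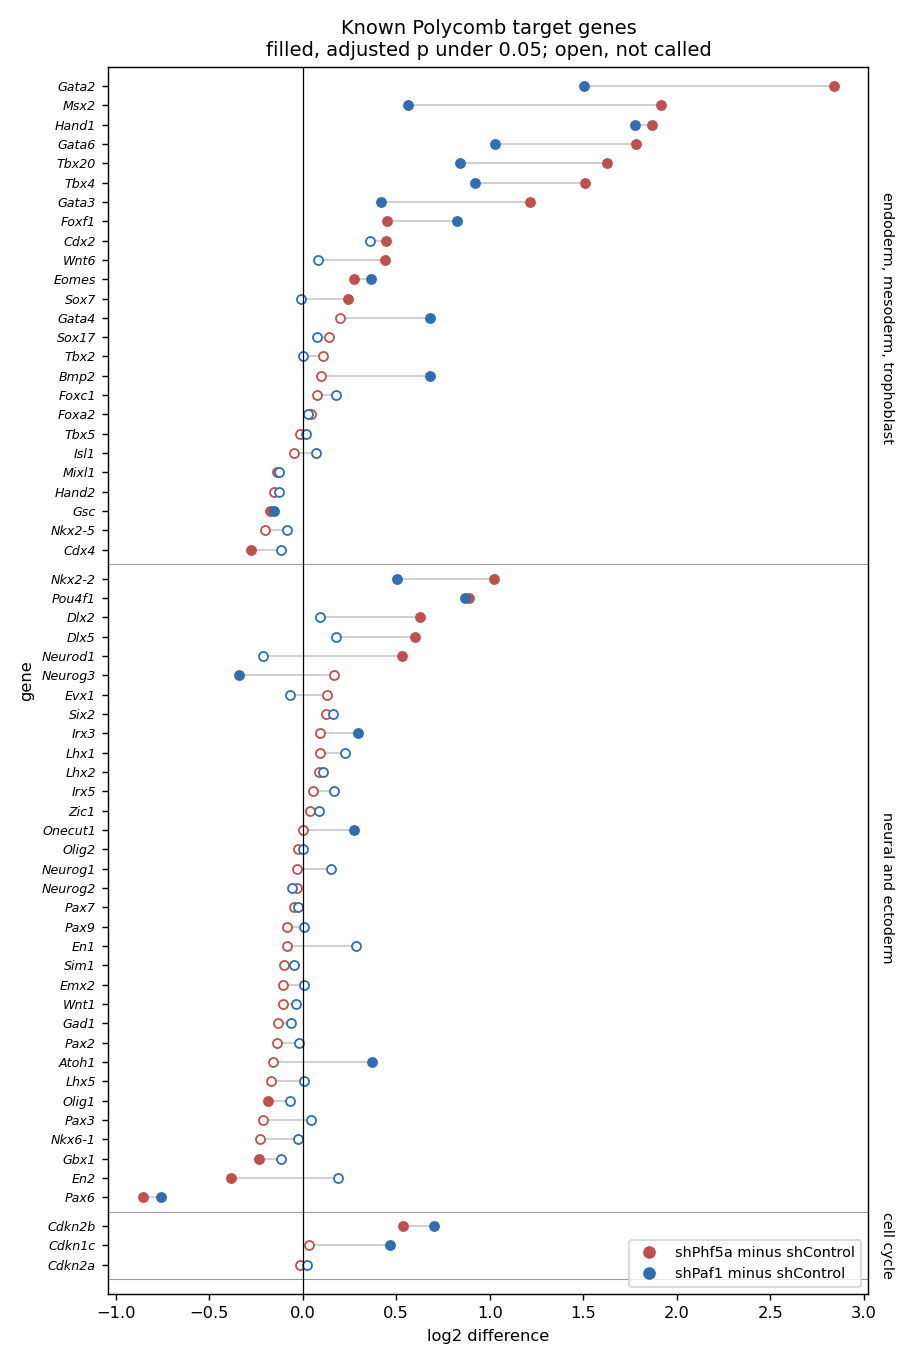
Log2 difference from shControl (horizontal axis) of 61 known Polycomb target genes in shPhf5a and shPaf1, by class; lines join the values of a gene, filled points passed the test and open points did not. Gata2 reaches 2.84 in shPhf5a, most neural genes lie near 0, and Pax6 is lower in both.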

How the data were processed

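The authors deposited log2 values for 33793 probe sets on each array, and these were used as they stand. Per the labels' protocols, 125 ng of total RNA was labelled with whole-transcript kits. Which software, background correction and normalization made them is not given in the sources used here. The log base was taken as 2 from their range (4.35 to 13.7) and nearly equal array medians. No detection calls, scan dates or slides were used, so that no batch was tested.

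Of the probe sets, 23521 had 1 gene symbol, 1814 several and 8458 none listed. For each gene the probe set with the highest mean was kept. The fit was limma 3.58.1 (lmFit, eBayes) in R 4.3.3 over all 9 arrays with 1 mean per group, with Benjamini-Hochberg adjustment over 22180 genes at 0.05, and was tested on simulated data. Members, lists and naming rules were chosen with earlier results of these data known. Named were all members, up to 6 called other subunits and 5 rises and 5 falls among targets per knockdown by size, subunits called in opposite directions, and the 3 genes most like the most changed member of each knockdown. Replicate numbers were not treated as pairs: same-numbered arrays of different groups had deviations correlated at -0.06 to 0.11, and others at -0.18 to 0.10. Promoter motifs were likewise chosen after the changes were known.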

Additional observations from a re-analysis of the deposited data

How the results depend on the processing

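Each count and each named gene except Ezh1 was refitted under 18 alternatives (17 for Cdx4, Gbx1, Olig1 and Bmi1, which the filter at the median level drops). For genes named after their values were seen, and for those most like a member, this was added after seeing the data. They changed the scaling (quantile, or centring on array medians), the genes (a filter at the median level), the probe sets (their mean, or testing all), the variance model (trended and robust), the weights of arrays, the arrays fitted (6 of the groups compared) or the block (replicate number), or dropped each array in turn. The labels share replicate numbers between groups, but do not say whether arrays are paired by them. With the replicate block 3 members were called in shPhf5a, 4 in shPaf1 and 4 between the knockdowns, and the all-gene counts were 8210, 7858 and 6255 against 8306, 7930 and 6430. Leaving out 1 array gave 2 to 5, 3 to 4 and 3 to 5 members. Target genes called between the knockdowns fell from 22 to 13 among genes above the median level, because that filter drops 36 of the 61. Members called in shPhf5a fell from 4 to 2 without shControl replicate 1, shControl replicate 2 or shPhf5a replicate 1. All other counts stayed within 1.5 times the reported one. Called members kept their direction throughout. Signs turned for differences near 0 and for Pcgf3 in shPaf1. After quantile normalization Ezh2, Mtf2 and Rnf2 were at 0.0485, 0.0135 and 0.065 in shPhf5a, and Ezh2 and Jarid2 at 0.0156 and 0.0856 in shPaf1. Leaving out 1 array gave -0.0531 to 0.0037 for Mtf2 and -0.0276 to 0.0126 for Rnf2 in shPhf5a, -0.0327 to 0.0274 for Jarid2 in shPaf1, and -0.0795 to 0.31 for Hand1 and -0.0578 to 0.0602 for Pou4f1 between the knockdowns. With array weights Pou4f1 and Gsc were at -0.0191 and 0.0203 there. Pcgf3 in shPaf1 was at -0.33 with the mean over its probe sets. Among genes named after their values were seen or most like a member, centring put Bap1 and Cdkn1c at -0.0195 and -0.0068 in shPhf5a. Quantile normalization put Snord65 at 0.0289 in shPhf5a, and Cdkn2a and Rybp at -0.0056 and 0.0345 in shPaf1. Array weights put Bmi1 at -0.0063 in shPhf5a. Leaving out 1 array gave -0.0164 to 0.0425 for Bap1, -0.0146 to 0.0926 for Bmi1 and -0.1322 to 0.0042 for Snord65 in shPhf5a, and -0.0356 to 0.0738 for Cdkn2a in shPaf1. Between the knockdowns it gave -0.0874 to 0.022 for Cdkn2a, -0.0355 to 0.106 for Mga, -0.0827 to 0.0407 for Bmi1 and -0.1474 to 0.0522 for Ctrl. Apart from Pcgf3 in shPaf1, none of these differences passed in the setting that turned its sign.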

Other observations

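Genes listed as opposing Polycomb complexes were also measured, 9 in all. They belong to histone demethylases and deubiquitinating complexes, apart from Dnajc2, which belongs to neither. In shPhf5a 3 were higher and 1 lower (44.4% called), and in shPaf1 4 were higher and 2 lower (66.7%). All 9 lie above the median level, where 62.1% and 59.9% of genes were called, against 37.4% and 35.8% of all genes. The following genes were named after their values were seen. Kdm6b, a demethylase that removes the PRC2 mark, read 8.74, 8.75 and 8.82 in shControl, 9.46, 9.21 and 9.37 in shPhf5a, and 9.73, 9.91 and 9.83 in shPaf1, without overlap between any groups. It rose by 0.58 (SE 0.07, limma adjusted p = 0.000214) and by 1.06 (SE 0.07, 2.08-fold, adjusted p = 5.34e-06). With the mean over its 2 probe sets Kdm6b rose by 0.25 and 0.52. The rise thus rests on the brighter probe set, and the dimmer one did not share it. Kdm6a, the other such demethylase measured, did not pass (0.15 with adjusted p = 0.0837, and -0.12 with adjusted p = 0.155), except in shPhf5a in 3 of 18 alternatives, among them that without shPhf5a replicate 2 (0.21, adjusted p = 0.0112). Asxl3, a partner of the deubiquitinase Bap1, rose by 0.47 (SE 0.11, adjusted p = 0.00542) and by 0.99 (SE 0.11, adjusted p = 6.07e-05). Asxl2 rose by 0.22 in shPhf5a (adjusted p = 0.0207) and fell by 0.19 in shPaf1 (adjusted p = 0.0381), calls lost in 6 and 7 of 18 alternatives. Bap1 and Asxl1 rose by 0.29 and 0.36 in shPaf1 (adjusted p = 0.00187 and 0.00147). Their differences in shPhf5a were 0.02 and 0.09 (adjusted p = 0.831 and 0.295), and the knockdowns differed in both (adjusted p = 0.0039 and 0.0113).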
